A study of Mus musculus with 23 samples.

Results

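Epithelial regulator genes, 7 in all, were followed across Brca1-deficient mouse mammary tumors: the transcription factor genes Elf3, Elf5, Ehf, Grhl2 and Ovol1 and the splicing regulator genes Esrp1 and Esrp2. They were listed by symbol as genes known to direct epithelial transcription or splicing, with earlier results of these data known, and they are 7 of the 14535 genes in the deposited table. All 7 are among the 12041 genes that averaged at least 1 FPKM and were tested. The series holds bulk RNA-seq of 23 primary mammary tumors, 1 library each, made to ask how such tumors differ from each other. All 23 carry 1 label, Brca1-deficient on a Mixed strain, so the design holds no control and no treated group. Per the study's methods, Cre driven by the MMTV promoter, which is active in mammary epithelium, deleted floxed Brca1, in some mice together with 1 floxed copy of Trp53 (MMTV-Cre; Brca1 fl/fl with or without Trp53 fl/+). The labels do not give each tumor's genotype or the age of its mouse, and neither entered here. The study's supplement codes X9387T and X147T as tumors of Brca1 mutant mice, and X4351T and X731T as tumors of Brca1 and Trp53 double mutant mice. The study also reports that its mesenchymal like tumors all came from mice that were Trp53 +/+. The titles hold 19 distinct numbers, of which 4 occur in a pair of tumors, and no label tells whether each tumor is from its own mouse, and the p-values reflect only how these samples spread, which may be partly technical.

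ELF3, ELF5 and EHF belong to the epithelium-specific branch of the ETS family of transcription factors, and ELF5 is known in the mammary gland for the step from luminal progenitors to milk-secreting alveolar cells. GRHL2, of the Grainyhead family, opens epithelial enhancers and promotes genes of cell junctions, and it and the zinc finger protein OVOL1 repress factors of the epithelial-to-mesenchymal transition (EMT) such as Zeb1. ESRP1 and ESRP2 bind RNA and direct the epithelial choice of exons in transcripts such as Fgfr2 and Cd44, and ZEB1 and the Snail proteins in turn repress epithelial genes through E-boxes in their promoters.

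Levels are given as log2(FPKM + 1), where FPKM is the number of fragments of a gene scaled to the length of its transcript and to all mapped fragments of the library. This scale is per length, so that genes can be ordered, and a level of 1 equals an FPKM of 1. Between 11829 and 12863 genes had a value above 0 in a tumor. Sequencing depth cannot be read from FPKM and is unknown. A value of exactly 0 is written as listed at 0, since it may come from an estimate that failed: some tumor listed 54 genes at 0 whose median level was at least 5. In bulk tissue, fewer cells of a type and less RNA per cell cannot be told apart, and reads of genes that overlap on opposite strands cannot be told apart either, since no strand setting is given in the sources used here. This bears on Esrp2, whose span overlaps Nfatc3 and 1810019D21Rik in the annotation.

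RefSeq promoter sequence on GRCm38.p6 was matched for 2 of the 7 genes, Elf3 and Elf5, and is printed to show the sequence before genes whose levels are described below. The Elf5 start in RefSeq lies inside the span given for the gene below. The stretches upstream of annotated exons are chr1:135258569-135258722 on the minus strand for Elf3 and chr2:103423818-103424061 on the plus strand for Elf5, read 5′ to 3′ along the gene, with a ZEB and Snail E-box in capitals.
Elf3: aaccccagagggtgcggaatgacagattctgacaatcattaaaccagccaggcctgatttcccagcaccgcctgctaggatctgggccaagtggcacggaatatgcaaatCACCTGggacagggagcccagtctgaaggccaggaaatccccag
Elf5: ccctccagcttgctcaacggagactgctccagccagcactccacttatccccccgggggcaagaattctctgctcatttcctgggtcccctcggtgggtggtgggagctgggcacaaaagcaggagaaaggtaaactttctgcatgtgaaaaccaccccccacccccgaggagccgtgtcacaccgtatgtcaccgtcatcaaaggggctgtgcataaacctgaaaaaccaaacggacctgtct
The E-box letters CACCTG, sought on both strands, lie 140 bases before the RefSeq start of Elf3 and are not in the Elf5 window. Of 32851 promoters cut to the same length, 11.1% hold these letters at the length of the Elf3 window and 16.9% at the 244 bases of the Elf5 window. The Grainyhead letters AACNNGTT, the Ovo letters CCGTTA and the ETS letters AGGAAG and CGGAAG were in neither window. Of the promoters cut to the Elf3 length, 2.47%, 1.34%, 18.6% and 6.52% hold them, in that order, and of those cut to 244 bases 3.59%, 2.13%, 28.9% and 13.1% do.

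The regulators were present in most tumors and next to absent in a few. Elf3 (chromosome 1, 135253575 to 135258568) had a mean level of 5.02 ± 2.50 (SD, n = 23) and was the most abundant. Ehf (chromosome 2, 103263433 to 103303278) averaged 4.31 ± 2.34 and Elf5, its neighbor on the same chromosome (103411688 to 103450989), 4.05 ± 2.42 (SD, n = 23). Esrp1 (chromosome 4, 11331933 to 11386783) averaged 4.41 ± 2.16 and its paralog Esrp2 (chromosome 8, 106130319 to 106136974) 3.27 ± 1.64 (SD, n = 23). Grhl2 (chromosome 15, 37233036 to 37363569) averaged 2.92 ± 1.496 and Ovol1 (chromosome 19, 5549136 to 5560646) 1.83 ± 1.34 (SD, n = 23), so the factor genes of the Grainyhead and Ovo families were the lowest. All positions are on GRCm38, the assembly that mm10 names. Their spread was large: 98.7% of tested genes had a smaller SD than Elf3, 98.5% than Elf5, 98.3% than Ehf, 97.9% than Esrp1, 95% than Esrp2, 92.9% than Grhl2 and 89.6% than Ovol1.

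By their medians the order was Elf3 (5.87), Ehf (5.35), Esrp1 (5.21), Elf5 (4.71), Esrp2 (3.82), Grhl2 (3.43) and Ovol1 (1.69). Each step was tested within tumors by a two-sided sign-flip permutation test, adjusted by the Benjamini-Hochberg method over 6 steps, and 4 passed 0.05. Elf3 exceeded Ehf by a mean of 0.71 and was higher in 14 of 23 tumors (permutation test, adjusted p = 0.0428). Ehf and Esrp1 differed by -0.10 (adjusted p = 0.650) and Esrp1 and Elf5 by 0.37 (adjusted p = 0.239), within the spread of these permutation tests, so Ehf, Esrp1 and Elf5 were not ordered beyond it. Elf5 exceeded Esrp2 by 0.77 in level and Esrp2 exceeded Grhl2 by 0.35, each with an adjusted permutation p of 0.0428. Grhl2 exceeded Ovol1 by 1.09 and was higher in 16 of 23 tumors (permutation test, adjusted p = 0.00972). With a pseudocount of 0.1 in place of 1 only 1 of the 6 steps passed.

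In 4 tumors there was next to no message of any of the regulators. They were set apart by Epcam, an epithelial adhesion gene that is not among the 7: it was listed at 0 in X520T, stood at 0.55 in X9387T, 2.02 in X738T and 3.10 in X92T, and was at 6.18 or more in the other 19. In X520T and X92T all 7 regulators were listed at 0. In X738T Elf3 was at 0.69 and Esrp2 at 0.12, in X9387T Grhl2 was at 0.22, and the remaining values were listed at 0, so the highest FPKM of any regulator in these 4 tumors was 0.613. Luminal keratin message was still there, with Krt8 at 5.29 in X520T, 7.22 in X738T, 4.79 in X92T and 7.36 in X9387T.

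For 6 of the 7 regulators all 4 tumors lay below all 19 others, as did 157 of 12041 tested genes (1.30%). The exception was Elf5, because X154T, a tumor with Epcam at 6.97, also had Elf5 listed at 0. The same 6 regulators were under an FPKM of 1 in all 4 tumors as well, as were 81 tested genes (0.673%). These tumors were picked by a measured gene, so no test was run between them and the rest. The study calls X9387T, 1 of these 4, mesenchymal like, a subtype that it found only in Trp53 +/+ mice. The part of Trp53 genotype in this division of the tumors was not tested.

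Families and partners of the regulators differed in the same 4 tumors. Of the Grainyhead and Ovo relatives 2 of 6 tested had all 4 tumors lowest, Grhl1 and Ovol2, and Grhl3 was listed at 0 in all 4 as well as in some others. Of 26 epithelial adhesion genes 18 did, a count that includes Epcam itself, which chose the tumors, and among them Cdh1, the gene of E-cadherin, and Rab25, a GTPase of apical recycling. Of 8 membrane serine proteases and their inhibitors 4 did, St14, Prss8, Spint2 and Tmprss2. None of 16 other ETS factor genes and none of 24 other splicing regulator genes tested did, near the 1.30% of all tested genes. Of 11 genes whose exons are chosen by ESRP proteins, Lsr, a tricellular junction gene, had all 4 tumors lowest.

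Above all 19 others in all 4 tumors were 104 tested genes (0.864%). Of 10 tested EMT factor genes this held for Zeb1, at 3.44 in X520T, 3.17 in X738T, 3.88 in X92T and 4.41 in X9387T, against 0 to 2.57 in the 19. Of 15 mesenchymal effector genes it held for Vim, S100a4 and Zyx. Markers of other cells moved in part with these tumors: the log2 of the summed FPKM of 12 fibroblast markers was between 10.42 and 12.33 in the 4, against 7.46 to 11.64 in the 19, and that of 12 macrophage markers between 10.22 and 11.67, against 4.46 to 11.40. Of single markers, Dcn of the fibroblast list and Cd68 of the macrophage list had all 4 tumors highest, no marker of either list was at 0 throughout the series, and the part of these cells in the low regulator levels was not tested. The summed luminal keratins lay between 5.78 and 8.30 in the 4 tumors, against 9.17 to 12.04 in the 19.

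**Figure D1:**
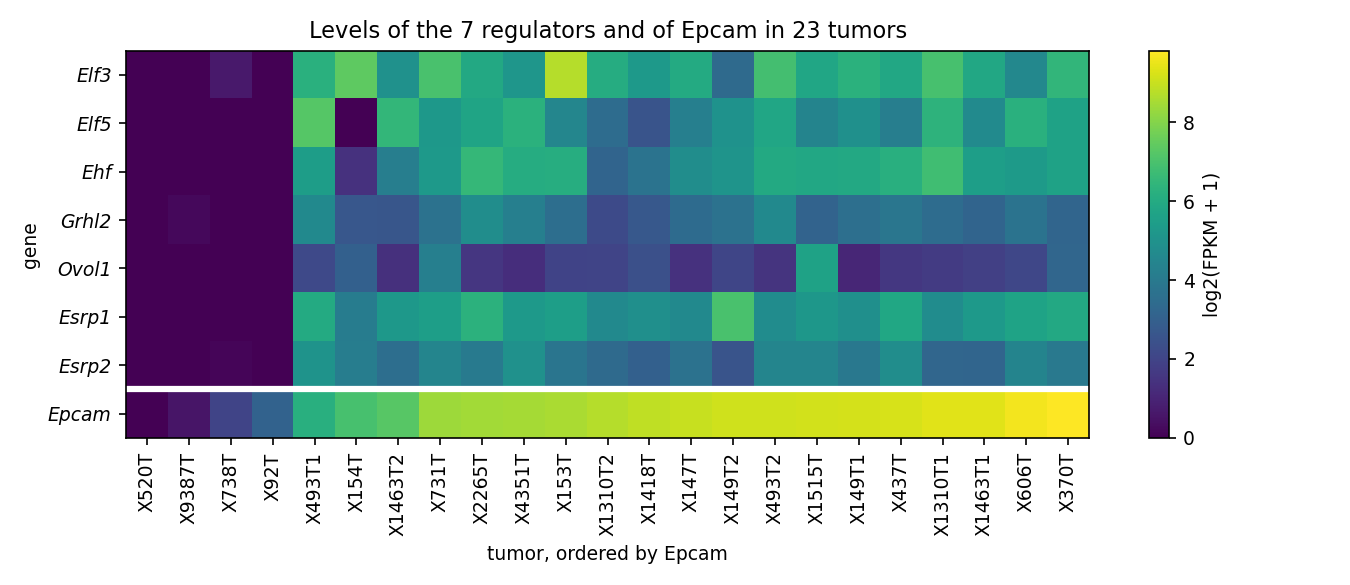
Heat map of the level, log2(FPKM + 1), of the 7 regulators and of Epcam (bottom, below the white line), genes in lines and the 23 tumors in columns ordered by Epcam. X520T, X9387T, X738T and X92T at the left are dark for all 7 genes, with no value above 0.69, and X154T stands out among the other 19 by Elf5 at 0 and Ehf at 1.40.

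Within the 19 tumors the regulators parted company. Elf3 ran from 3.39 in X149T2 over a median of 6.01 to 8.74 in X153T, a mean of 6.04 ± 1.15 (SD, n = 19). Elf5 ran from 0 in X154T over a median of 5.004 to 7.24 in X493T1, and the next lowest tumor, X1418T, was at 2.55. Ehf ran from 1.40 in X154T over a median of 5.49 to 6.82 in X1310T1, with X1310T2 next lowest at 3.16. Elf5 and Ehf thus shared their lowest tumor, where Elf3 was the second highest of the 19, at 7.40. The ETS genes varied more than most genes here: 96.0% of tested genes had a smaller SD over the 19 tumors than Elf5, 91.2% than Ehf and 86.7% than Elf3.

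Grhl2 ran from 2.19 in X1310T2 over a median of 3.56 to 4.795 in X2265T, and Ovol1 from 1.06 in X149T1 over 1.96 to 5.66 in X1515T, with X731T next at 4.24. Ovol1 was highest in these tumors, X1515T and X731T, and 86.2% of tested genes had a smaller SD. Esrp1 ran from 4.14 in X154T over 5.28 to 6.998 in X149T2 and Esrp2 from 2.56 in X149T2 over 3.98 to 5.04 in X493T1. The splicing regulators were the steadiest along with Grhl2: 47.6% of tested genes had a smaller SD than Esrp1, 48.4% than Esrp2 and 53.5% than Grhl2. X149T2 held the highest Esrp1 but the lowest Esrp2 and Elf3. Its FPKM values summed to 1.68e+06, against 387531 to 706401 in all other tumors of the series. Its upper quartile of protein-coding genes, 19.3 FPKM, lay within the range of the others. The part of this scaling in its levels was not tested.

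The pairs of tumors sharing a number were not alike throughout. X1310T1 had Elf5 at 6.34 and Ehf at 6.82, and X1310T2 had them at 3.47 and 3.16. X149T1 had Elf3 at 6.25 and Esrp1 at 4.90, against 3.39 and 6.998 in X149T2. In X493T1 and X493T2 Grhl2 was at 4.67 and 4.66, while Elf5 was at 7.24 and 5.82. In X1463T1 Elf5 was lower than in X1463T2 (4.71 and 6.51) and Ehf higher (5.49 and 4.19), whereas X1310T1 exceeded X1310T2 in both.

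Relations among the regulators were measured within the 19 tumors over all 21 pairs, with permutation p-values, two-sided and adjusted over the 21 pairs, for Pearson's r and for Spearman's rho. By Pearson's r 2 pairs passed 0.05, both positive, and by rho none did. For Elf5 and Ehf r was 0.739 (permutation p = 0.00167, adjusted p = 0.0175) and a rho of 0.372 (permutation p = 0.117, adjusted p = 0.410). This relation rested on its lowest tumors: r was 0.469 without X154T (permutation test, adjusted p = 0.268) and 0.298 without X154T and X1418T (adjusted p = 0.518), and the call was also lost without X1310T2 (adjusted p = 0.0586) or X1418T (adjusted p = 0.0678). Over all 12039 tested genes, Ehf ranked 69 by r with Elf5 and rose with it (limma slope per SD of Elf5 0.97 ± 0.20 SE, adjusted p = 0.0140).

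For Ehf and Grhl2 r was 0.672 (permutation p = 0.00106, adjusted p = 0.0175) and a rho of 0.611 (permutation p = 0.00662, adjusted p = 0.0846). With 1 tumor per title number r was 0.588 (permutation test, adjusted p = 0.0694) and without X154T and X1310T2 it was 0.568 (adjusted p = 0.217), and the call was lost without X1310T2 (adjusted p = 0.0586) or X1418T (adjusted p = 0.0678). Grhl2 ranked 89 by r with Ehf over all tested genes but was not called there (limma slope 0.48 ± 0.13 SE, adjusted p = 0.104). Elf5 and Grhl2 came next, r being 0.583 (permutation p = 0.00803, adjusted p = 0.0562) and a rho of 0.509. With 1 tumor per title number 4 pairs passed, the pairs of Elf5 with Ehf, Grhl2 and Esrp1 and the pair of Grhl2 and Esrp1. Within the 13 tumors whose immediate-early score, described below, was high, the same 2 pairs passed as over the 19, with r of 0.796 for Elf5 and Ehf and 0.734 for Ehf and Grhl2 (permutation test, adjusted p = 0.0426 each). In the other 6 tumors these pairs had r of -0.58 and 0.32, which were not tested.

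Other pairs were not past the threshold. Elf3 had an r of 0.03 with Ehf and 0.01 with Grhl2, and its r of -0.46 with Esrp1 (permutation p = 0.0506, adjusted p = 0.133) was -0.19 without X149T2. For Esrp1 and Esrp2, which share known exon targets, r was -0.01 (permutation p = 0.957, adjusted p = 0.959), and without X149T2 it was 0.40. Ovol1 had an r between -0.25 and 0.17 with the other regulators.

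**Figure D2:**
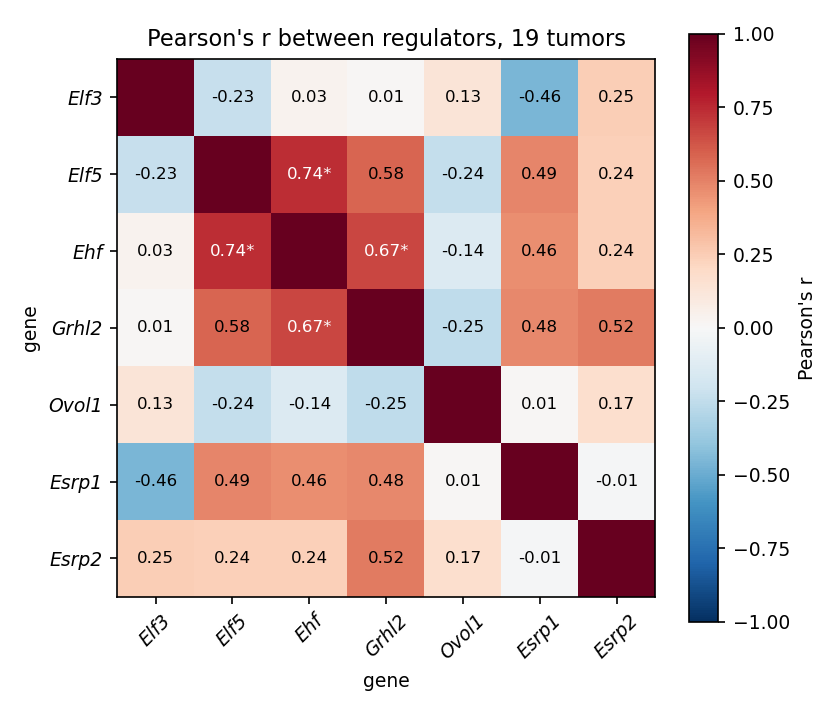
Pearson's r of each pair of regulators over the 19 tumors with Epcam at 6.18 or more, as colors from -1 to 1 with the value in each cell. Stars mark the 2 pairs past 0.05 after adjustment, Elf5 with Ehf (0.74) and Ehf with Grhl2 (0.67). The 6 cells of Ovol1 lie between -0.25 and 0.17.

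To find what moved with each regulator, the level of every tested gene was regressed on that of the regulator over the 19 tumors with limma, and each slope, on the log2(FPKM + 1) scale, is for a step of 1 SD in the regulator, with its standard error (SE). A gene is said to rise or fall where its Benjamini-Hochberg adjusted p over all 12039 genes was under 0.05. The regressions share their tumors and are not independent of each other.

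With Elf5, 260 genes rose (2.16% of 12039) and 184 fell (1.53%). Among the genes of highest r were Lurap1l (0.90), Kit (0.89), Mccc1 (0.88) and Noxo1 (0.86), and those of lowest r were Lrrc8c (-0.83), Bdkrb2 (-0.81) and Rai14 (-0.81). Bdkrb2 had a median level of 0, was highest in X154T at 3.73 and was not called without X154T (limma, adjusted p = 0.067). Kit, the receptor tyrosine kinase of luminal progenitors, was listed at 0 in X154T and ran over a median of 4.88 to 6.53 in X493T1, so its lowest and highest tumors are those of Elf5. Its slope was 1.31 ± 0.16 SE (limma, adjusted p = 0.000204), it stayed past the threshold without any 1 of the 19 tumors, although without X154T the slope was 0.73 (adjusted p = 0.0257), and with the immediate-early score as covariate it was 1.24 (adjusted p = 0.00244). Lurap1l rose at 1.10 ± 0.13 SE (limma, adjusted p = 0.000204), and without X154T at 0.66 (adjusted p = 0.0253).

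The slope on Elf5 was positive for only 8 of 14 luminal progenitor genes, with a median of 0.63 against 0.06 over all tested genes. Of the 14 genes 4 rose with Elf5 and none fell. Besides Kit these were Sox10, a progenitor transcription factor (1.58 ± 0.27 SE), the secreted protein gene Wfdc18 (1.25 ± 0.26 SE) and the lipocalin gene Lcn2 (0.80 ± 0.22 SE). The calls of Sox10 and Wfdc18 were lost without X154T and that of Lcn2 without any 1 of 14 tumors. Genes of milk and alveolar cells, the known sphere of ELF5, gave no call in 13 tested, with a slope of 0.35 for the casein gene Csn2 (limma, adjusted p = 0.755), 0.51 for Wap (adjusted p = 0.563) and 0.69 for the prolactin receptor gene Prlr (adjusted p = 0.158).

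EMT and mesenchymal genes leaned the other way. Of 10 EMT factor genes 3 fell with Elf5 and none rose: Foxc2 (-0.82 ± 0.19 SE), Twist2 (-0.82 ± 0.22 SE) and Prrx1 (-0.70 ± 0.18 SE). Each of these calls was lost without X154T, that of Twist2 without any 1 of 10 tumors and that of Prrx1 without any 1 of 5. With a pseudocount of 0.1 Twist2 (limma, adjusted p = 0.165) and Prrx1 (adjusted p = 0.11) were not called. Of 15 mesenchymal effector genes 4 fell, among them the fibronectin gene Fn1 (-0.91 ± 0.22 SE), the integrin gene Itga5 (-0.79 ± 0.18 SE) and the tenascin gene Tnc (-0.58 ± 0.16 SE). Itga5 stayed called without any 1 tumor, Fn1 did not without X1418T or X493T1, and Tnc did not without any 1 of 16 tumors. With the immediate-early score as covariate 1 of the 15 mesenchymal genes and none of the 10 EMT factor genes fell, and Itga5 was not called (limma, adjusted p = 0.0789), nor was it with 1 tumor per title number (adjusted p = 0.0701). Zeb1 had a slope of -0.50 (limma, adjusted p = 0.132), Zeb2 of -0.51 (adjusted p = 0.109) and Snai1, of the Snail proteins, of -0.61 (adjusted p = 0.131).

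Epithelial genes mostly gave no call. Of 26 adhesion genes 2 rose with Elf5, the junction genes Tjp3 (0.86 ± 0.24 SE) and Marveld3 (0.73 ± 0.16 SE), while Cdh1 (-0.09, adjusted p = 0.814) and Epcam (0.06, adjusted p = 0.886) were not called by limma. The call of Marveld3 was lost without X154T and that of Tjp3 without any 1 of 15 tumors. Of 8 membrane proteases Hpn, Tmprss13 and Tmprss2 rose and Prss22 fell, the first 3 not without X154T and Prss22 not without any 1 of 14 tumors. None of these adhesion and protease genes was called with the covariate. Of 12 fibroblast markers Lum fell, with a median slope of -0.46 over the list, and of 8 neutrophil markers Retnlg fell, with a median of -0.66. The call of Lum was lost without X1418T, X154T or X493T1 and that of Retnlg without any 1 of 16 tumors, and the part of these cells in the slopes with Elf5 was not tested. With the immediate-early score as covariate 78 genes were called in place of 444. The count was 209 without X493T1 (3.69% of tested genes were called over the 19 tumors), 277 without X1310T2, 285 without X606T, 235 with 1 tumor per title number, and 284 after rescaling by the upper quartile.

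**Figure D3:**
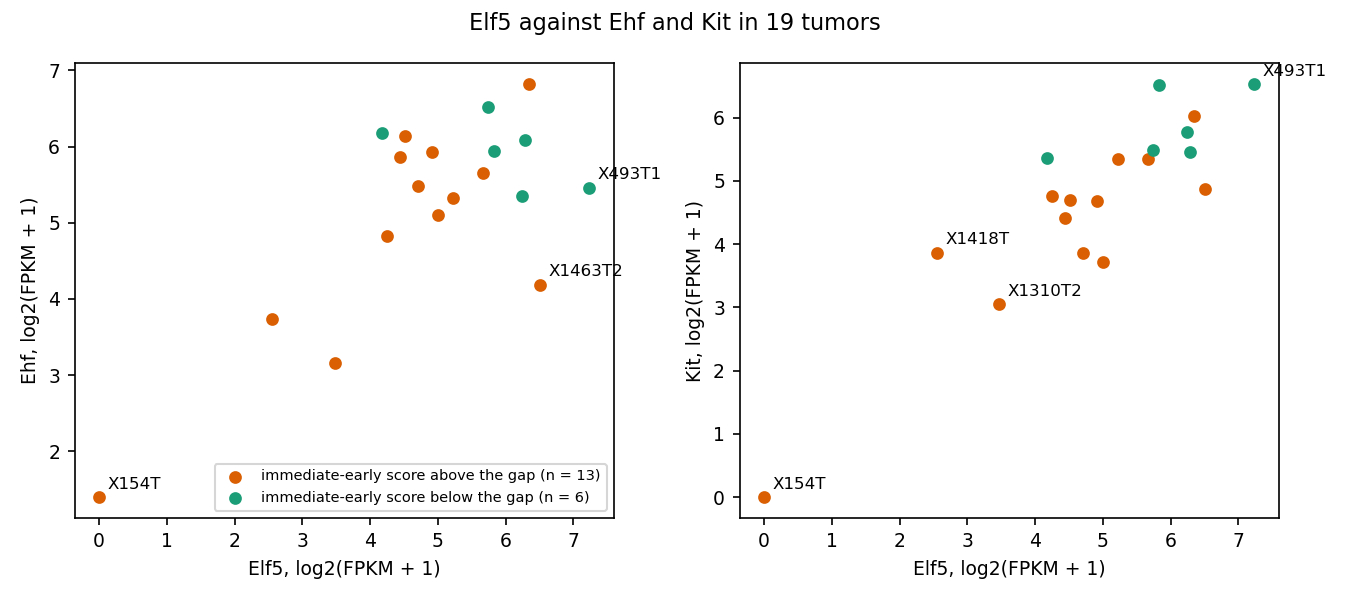
Level of Ehf (left) and of Kit (right) against that of Elf5, log2(FPKM + 1) on all axes, 1 point for each of the 19 tumors, colored by the immediate-early score (13 tumors above its gap, 6 below). X154T lies alone at the lower left of both plots (Elf5 0, Ehf 1.40, Kit 0), and the other points rise more evenly for Kit than for Ehf, where X1463T2 stands off.

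With Ehf, 41 genes rose (0.341%) and 26 fell (0.216%), but none did without X154T, where Ehf was lowest. At an unadjusted p under 0.05 limma gave 1307 genes over the 19 tumors and 1075 without X154T. In either direction 0.557% of genes were called. The genes of highest r were Wfdc18 (0.89), Appl2 (0.89), Rnf130 (0.86), Fam84b (0.84) and 0610040J01Rik (0.84), and those of lowest r were Steap1 (-0.85), Brinp3 (-0.82) and Lce1f (-0.81). Steap1 and Lce1f had a median level of 0 and were highest in X154T, at 4.08 and 4.62. Brinp3 was not called (limma, adjusted p = 0.0842). Wfdc18 was at 4.72 in X154T and between 7.88 and 12.13 in the other 18 tumors. Sox10, Wfdc18 and Kit were the luminal progenitor genes that rose with Ehf, 3 of 14, as they did with Elf5. Of the adhesion genes Tjp3 rose and of the proteases Tmprss2, the EMT factor gene Twist2 fell, and no call was made among 13 milk and alveolar genes. The count was also 23 without X1310T2, and without X1515T it was 84 rising and 65 falling, and it was 140 with a pseudocount of 0.1.

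Elf5 and Ehf lie 108.4 kb apart on chromosome 2, in opposite orientation. Between and around them, within 500 kb of Elf5, 7 genes were tested and Ehf alone rose with Elf5. Cat, the catalase gene 2.9 kb from Elf5, had an r of 0.64 with it (slope 0.42, limma adjusted p = 0.0639), Apip 0.46, Pdhx 0.41 and Abtb2 -0.25. Of the 8 genes tested around Ehf, Elf5 alone rose with Ehf, and Cd44, 361.8 kb away, had an r of -0.39.

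Grhl2 moved with more genes than any other regulator: 2308 rose (19.2%) and 580 fell (4.82%), together 24.0%. Grhl2 also differed between the sets of tumors that the immediate-early genes divide. The score of 29 immediate-early genes, which code for factors induced within minutes of a stimulus, left a gap from -0.82 to 0.26 over the 23 tumors, and it divided the 19 tumors into 13 above and 6 below. Grhl2 did not overlap between them, with 2.19 to 3.69 (median 3.20) in the 13 and 3.75 to 4.795 (median 4.44) in the 6. Of all 12041 tested genes 224 (1.86%) likewise had all 6 tumors above all 13, and 79 (0.656%) had them below. Of the other regulators Esrp2 was closest to this, at 2.56 to 4.47 (median 3.71) and 4.01 to 5.04 (median 4.63). Elf5 (0 to 6.51 and 4.18 to 7.24), Ehf (1.40 to 6.82 and 5.35 to 6.52), Ovol1 (1.06 to 5.66 and 1.29 to 2.15), Esrp1 (4.14 to 6.998 and 4.79 to 6.30) and Elf3 (3.39 to 8.74 and 4.58 to 6.89) overlapped more widely.

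The libraries differed between the same sets. The upper quartile of protein-coding genes was between 15.7 and 19.99 FPKM in the 13 tumors and between 21.2 and 23.7 in the 6, and the median slope on Grhl2 over all tested genes was 0.14, against 0.03 after the upper quartile of each tumor was made the same. With that rescaling 349 genes rose and 394 fell, so that 47.0% of the called genes rose in place of 79.9%. With the immediate-early score as covariate no gene was called by limma, with 1086 at an unadjusted p under 0.05. The relation of Grhl2 to other genes and the split cannot be told apart in these tumors. Per the study's methods, bulk libraries were run on differing sequencer models and at differing read lengths. Which tumor had which did not enter here, and the part of sequencing in this split was not tested.

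**Figure D4:**
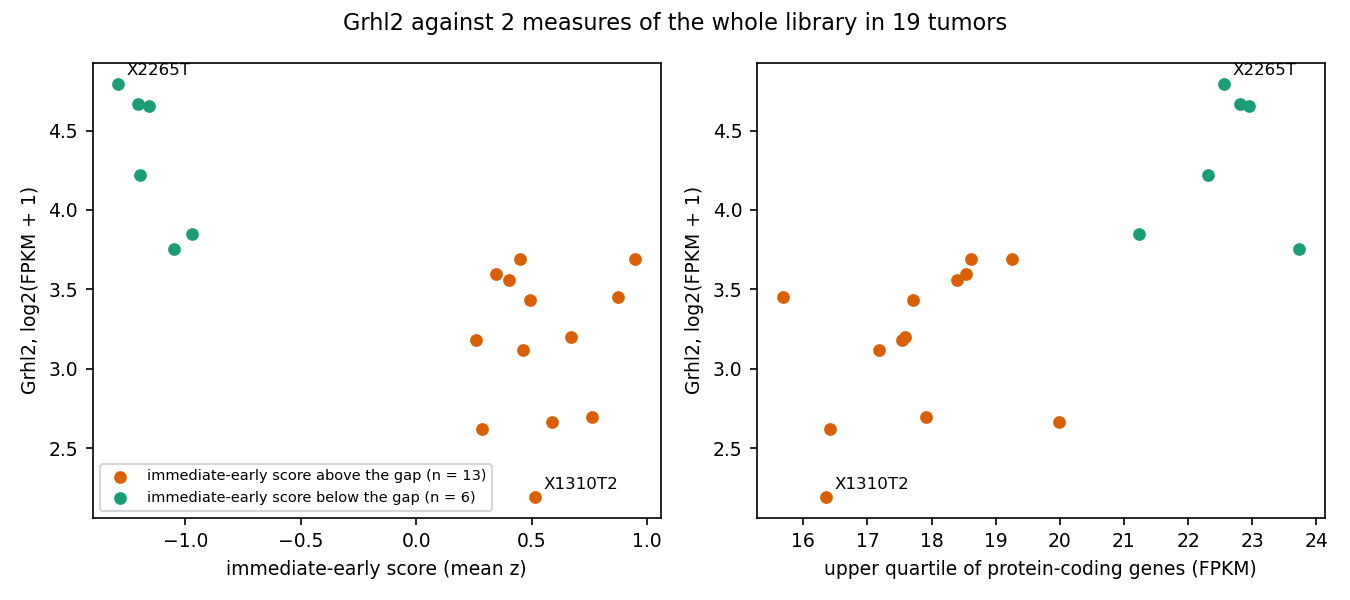
Level of Grhl2, log2(FPKM + 1), against the immediate-early score (mean z, left) and against the upper quartile of protein-coding genes in FPKM (right), 1 point for each of the 19 tumors. The 6 tumors below the gap in the score hold the 6 highest Grhl2 levels, 3.75 to 4.795, and the 6 highest upper quartiles, 21.2 to 23.7.

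The genes of highest r with Grhl2 were Fzd6 (0.92), a Wnt receptor gene 1.64 Mb away on chromosome 15, Etv6 (0.90), Naa40 (0.89), Zc3h7b (0.88) and Smarcd1 (0.88). The lowest were Ptgs2, the gene of prostaglandin synthase COX-2, with a slope of -2.18 ± 0.22 SE (r -0.91, limma adjusted p = 2.13e-05), Pim1 (-0.86) and Rassf8 (-0.86). Ptgs2 ran from 0 to 7.46 over the 19 tumors. Of the 29 immediate-early genes 24 fell with Grhl2, which the split already shows.

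Among EMT factor genes, which GRHL2 is known to repress in part, 3 of 10 fell with Grhl2 and none rose. Zeb1, listed at 0 in X2265T, X493T1, X493T2 and X370T and at 2.57 in X1418T, had a slope of -0.68 ± 0.16 SE (limma, adjusted p = 0.00660). It was past the threshold without any 1 tumor and after rescaling (-0.66, adjusted p = 0.0274), and with the immediate-early score as covariate the slope was -0.52 (adjusted p = 0.526). Prrx1 fell as well (-0.77 ± 0.16 SE) and so did Zeb2 (-0.50 ± 0.18 SE, adjusted p = 0.0494), whose call was lost without any 1 of 14 tumors. With 1 tumor per title number Zeb1 was called (limma, adjusted p = 0.0402), and Prrx1 (adjusted p = 0.073) and Zeb2 (adjusted p = 0.285) were not. Snai1 had a slope of -0.59 (adjusted p = 0.0650), Twist1 of -0.68 (adjusted p = 0.104) and Snai2 of -0.14 (adjusted p = 0.754).

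Of 8 membrane proteases and inhibitors 3 rose with Grhl2: St14, the gene of matriptase (0.81 ± 0.18 SE), Tmprss2 (0.66 ± 0.17 SE) and Spint1, an inhibitor of matriptase (0.40 ± 0.14 SE). Of 26 adhesion genes 4 rose: Tjp3 (1.04 ± 0.21 SE), Marveld3 (0.66 ± 0.17 SE), Rab25 (0.43 ± 0.13 SE) and the claudin gene Cldn7 (0.40 ± 0.14 SE), with a median slope of 0.19 over the list against 0.14 over all tested genes. That is no larger a share than the 19.2% of all tested genes that rose with Grhl2. After rescaling St14, Tmprss2 and Tjp3 were still called, and Spint1, Rab25, Cldn7 and Marveld3 were not. With 1 tumor per title number Tjp3 (limma, adjusted p = 0.0402) and Marveld3 (adjusted p = 0.02) were called. St14 (adjusted p = 0.0562), Tmprss2 (adjusted p = 0.0776), Spint1, Rab25 and Cldn7 were not called by limma in that setting. The calls of Rab25 (without X493T2), Cldn7 (without any 1 of 6 tumors) and Spint1 (without any 1 of 15) were also lost on leaving out a tumor. Cdh1 (0.07, adjusted p = 0.812) and Epcam (-0.05, adjusted p = 0.879) gave no call by limma.

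The 14 luminal progenitor genes divided with Grhl2, with 4 rising (Sox10, Kit, Wfdc18 and Mfge8) and 3 falling. Those falling were the chemokine gene Cxcl1, the protease inhibitor gene Slpi and the integrin gene Itga2. Over all tested genes 19.2% rose and 4.82% fell. Kit rose at 1.00 ± 0.24 SE and Cxcl1 fell at -2.19 ± 0.32 SE. Of 11 genes spliced by ESRP proteins Scrib (0.44) and Arhgef11 (0.33) rose with Grhl2, no larger a share than over all tested genes. Cd44 (-0.73 ± 0.20 SE, limma adjusted p = 0.0130) fell, and the median slope of the list was 0.09 against 0.14 over all tested genes. The call of Cd44 was lost without X493T2 and with 1 tumor per title number (limma, adjusted p = 0.147). Gene-level FPKM does not show which exons were used. Of 13 milk and alveolar genes Stat5a and Stat5b rose with Grhl2, again no larger a share than over all genes, and of 15 squamous genes Lypd3, Sbsn and Lor fell. Neutrophil markers fell in 5 of 8 and fibroblast markers in 3 of 12 (Dcn, Lum and Pi16), and their part in the slopes with Grhl2 was not tested. The count of 2888 genes was 468 with 1 tumor per title number, 1523 without X493T2 and 1656 without X493T1.

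With Ovol1, 66 genes rose (0.548%) and 22 fell (0.183%), together 0.731%, and none did without X1515T, the tumor of highest Ovol1. At an unadjusted p under 0.05 limma gave 2092 genes over the 19 tumors and 728 without X1515T. Of 15 genes of squamous differentiation, a program in which OVOL1 acts in skin, 6 rose with Ovol1 and none fell, with a median slope of 1.25 against -0.07 over all tested genes. They were the cornified envelope genes Sprr1a (1.82 ± 0.43 SE), Sprr1b (1.82 ± 0.43 SE) and Cnfn (1.27 ± 0.26 SE), the keratin gene Krt10 (1.25 ± 0.23 SE), the transglutaminase gene Tgm1 (1.16 ± 0.18 SE) and the kallikrein gene Klk7 (1.11 ± 0.23 SE). With a pseudocount of 0.1 only Tgm1 of these 6 was called (limma, adjusted p = 0.0481), the others having adjusted p from 0.0639 (Cnfn) to 0.147 (Sprr1a), and over all genes 17 rose and 22 fell.

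Krt10, a keratin of the suprabasal epidermis, was at 7.18 in X1515T and at 2.42 or less in the other 18 tumors. Grhl3, the Grainyhead gene of epidermal barrier formation, was at 5.52 in X1515T, at 3.20 in X493T1, at 3.09 in X731T and listed at 0 in X1310T1, X1463T1, X1463T2, X147T and X2265T, with a slope of 1.12 ± 0.21 SE (limma, adjusted p = 0.0201). Fgfr2, whose exons ESRP proteins choose, was at 5.33 in X149T2, 5.29 in X731T and 4.62 in X1515T and at 1.37 or less in the other 16. Its slope on Ovol1 was 1.29 ± 0.30 SE (adjusted p = 0.0468), lost without any 1 of 16 tumors. Cdh1, highest in X1515T at 8.23, had a slope of 0.57 (limma, adjusted p = 0.0724).

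The genes of highest r with Ovol1 were Tollip (0.86), Stfa3 (0.86), Mapkbp1 (0.86), Dennd2c (0.85) and Ppp2ca (0.85), and those of lowest r were Rfc3, Rpp30 and Mrpl30, each at -0.79. No EMT factor gene of 10 was called with Ovol1: Zeb1 had a slope of 0.19 (limma, adjusted p = 0.650) and Snai2 of 0.80 (adjusted p = 0.123). With the immediate-early score as covariate 28 genes were called, with Krt10, Tgm1, Cnfn and Grhl3 among them, and without a filter on low values 228. The count was 27 without X147T, 138 without X149T2, and between 37 and 53 without any 1 of X1310T1, X1463T2, X149T1, X2265T, X4351T, X437T, X493T2 and X731T.

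**Figure D5:**
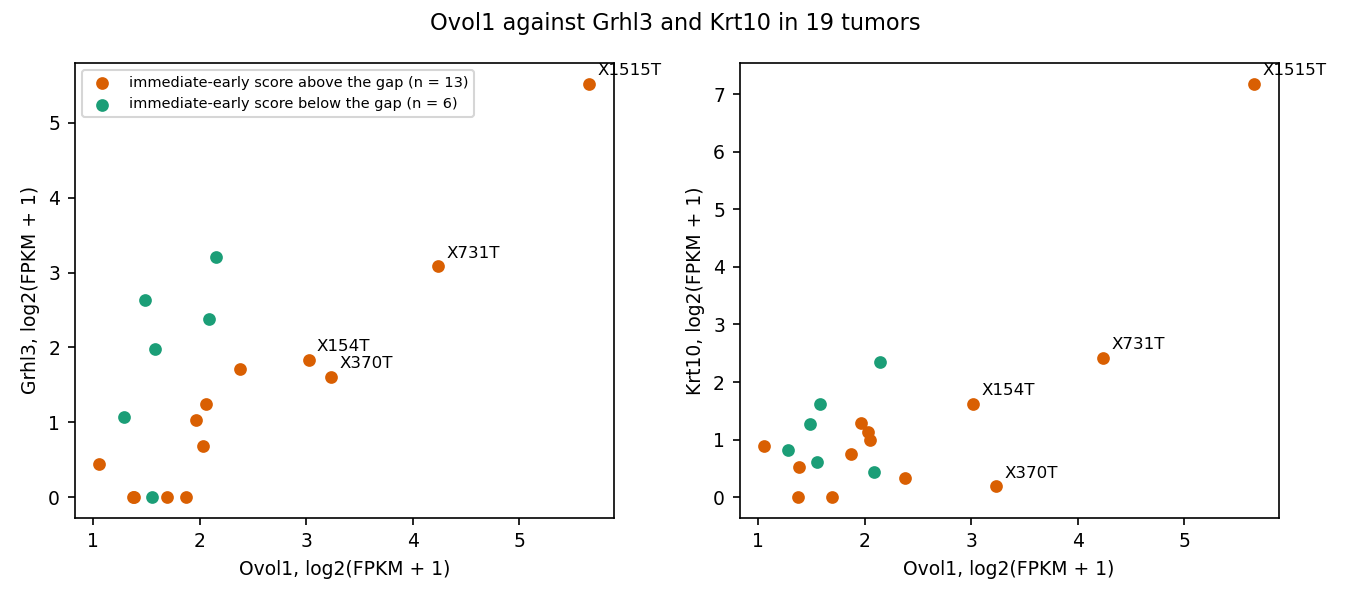
Level of Grhl3 (left) and of Krt10 (right) against that of Ovol1, log2(FPKM + 1) on all axes, 1 point for each of the 19 tumors, colored by the immediate-early score. X1515T (Ovol1 5.66, Grhl3 5.52, Krt10 7.18) lies alone at the upper right of both plots, with X731T next on the Ovol1 axis at 4.24.

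No gene was called with Elf3 or with Esrp1 by limma, with 704 and 904 at an unadjusted p under 0.05. The genes of highest r with Elf3 were Hdac4 (0.74), Arrdc4 (0.73), Sox4 (0.70), Slc45a3 (0.69) and Irf1 (0.68). The lowest were Psmd6 (-0.87), Ube2e1 (-0.84) and Kctd6 (-0.78), none of them called. These all lie on chromosome 14, whose share of tested genes was not counted. Psmd6, a proteasome subunit gene, ran from 4.42 to 6.40, with a slope of -0.47 ± 0.08 SE (limma, adjusted p = 0.125). Sox4, a developmental factor gene, ran from 5.25 to 8.17 with a slope of 0.51 ± 0.13 SE on Elf3 (adjusted p = 0.458). None of the lists gave a call with Elf3.

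The genes of highest r with Esrp1 were mostly on its own chromosome. They were 1110037F02Rik (0.80), 99.2 kb away, the recombination gene Rad54b (0.80), 172.1 kb away, Tmem68 (0.75), 7.76 Mb away, and Faxc (0.73), 10.5 Mb away, all on chromosome 4 like Esrp1, then Hbs1l (0.73) on chromosome 10. Thus 4 of the 5 genes of highest r lay on its own chromosome, which holds 6.39% of tested protein-coding genes. For Grhl2 the count was 3 of 5 on chromosome 15 (4.22% of tested protein-coding genes), for Elf3 2 of 5 on chromosome 1 (5.94%), for Esrp2 1 of 5 on chromosome 8 (5.52%), and for Elf5, Ehf and Ovol1 none of 5. Of 11 tested genes within 500 kb of Esrp1, r ran from -0.23 (Gem) to 0.80, with 2610301B20Rik at 0.73, Plekhf2 at 0.70 and Ndufaf6 at 0.63, while the nearest, Dpy19l4 at 9.8 kb, had 0.35 and Trp53inp1 0.09, and none was called (limma, adjusted p from 0.489 to 0.925).

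Zeb1 had a slope of -0.58 on Esrp1 (limma, adjusted p = 0.506) and Enah, an actin regulator spliced by ESRP proteins, of -0.45 (adjusted p = 0.592). Other genes spliced by ESRP proteins, Cd44 (-0.01) and Fgfr2 (0.49), were not called either.

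With Esrp2, 6 genes rose (0.0498%) and 2 fell (0.0166%), together 0.0665%. Cog8, a Golgi trafficking gene 0.909 Mb away on chromosome 8, rose at 0.66 ± 0.11 SE (limma, adjusted p = 0.0334), and Zfp710, Kif1c, Pelp1 and Tmem79 rose at 0.55 to 0.69. Gla, the gene of alpha-galactosidase A, fell at -0.62 ± 0.10 SE (adjusted p = 0.0334) and Ddit3, a stress-induced factor gene, at -0.51 ± 0.10 SE (adjusted p = 0.0459). These calls did not hold: none was made with the immediate-early score as covariate, after rescaling, with 1 tumor per title number, or without any 1 of X1310T2, X1463T1, X1463T2, X4351T, X493T1, X493T2 and X606T, while 568 genes were called without X149T2, 532 without X1515T, 112 without X1418T, 17 without X731T, 5 without X147T or X149T1 and 2 without X1310T1. X149T2 is the tumor of lowest Esrp2 and of highest summed FPKM. At an unadjusted p under 0.05 limma gave 2798 genes over the 19 tumors, 819 with the covariate, 1329 after rescaling and 2170 with 1 tumor per title number.

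Around Esrp2 none of 26 tested genes within 500 kb was called, although r reached 0.79 for Ranbp10 and Cenpt and 0.78 for Gfod2. Of the genes whose spans overlap Esrp2, Nfatc3 had an r of 0.33 (limma, adjusted p = 0.441) and 1810019D21Rik of 0.63 (adjusted p = 0.068). Cdh1, 466.4 kb from Esrp2, had an r of 0.42 with it (limma, adjusted p = 0.225). Around Grhl2, Zfp706, 225.3 kb away, rose with it (0.45 ± 0.08 SE, adjusted p = 0.00284), and Ncald, 2.6 kb away, had an r of 0.24. Around Ovol1 none of 44 tested genes was called, with Fosl1, an AP-1 factor gene 93.2 kb away, nearest to it (1.34, adjusted p = 0.0503).

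Relatives of the regulators were present in part. Grhl1 ran from 1.40 to 4.76 and Ovol2 from 1.05 to 4.41 over the 19 tumors. Grhl1 had an r of 0.65 with Esrp2 (limma, adjusted p = 0.0651) and 0.56 with Elf5 (adjusted p = 0.0980), and Ovol2 of 0.45 with Elf3 (adjusted p = 0.843). Spdef, an ETS gene of secretory cells, was listed at 0 in most tumors and reached 2.26 in X1463T1. Of 16 other ETS factor genes Etv5 rose with Elf5 (limma, adjusted p = 0.0484). That call was lost without any 1 of 12 tumors and with 1 tumor per title number (limma, adjusted p = 0.082). With Grhl2, Etv5 and Etv6 of these 16 rose and Elk4 fell. Of 24 other splicing regulator genes Srsf2 and Ptbp1 rose and Qk fell with Grhl2. In both lists the share that rose was no larger than the 19.2% of all tested genes, and 4.82% of all tested genes fell. Rbm47, a splicing regulator of epithelia, had a slope of 0.49 on Esrp2 (adjusted p = 0.101).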

How the data were processed

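Bulk RNA-seq of 23 tumors was analysed from a table that the authors deposited as log2 values, log2(FPKM + 1), in which the log base and the added 1 were inferred from the values. The submitters' processing notes name Trimmomatic 0.35, TopHat2 2.0.13, Cufflinks 2.2.1 and mm10. Depth and strand setting are not given in the sources used here. The members and gene lists were chosen with earlier results of these data known.

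Genes with a mean FPKM of at least 1 were tested (12041 of 14535). A pseudocount of 1 understates changes of low genes. Tumors were divided at the widest gap in Epcam with at least 3 tumors on each side, and relations were taken within the 19 above it. Regressions used limma 3.58.1 in R 4.3.3 with Benjamini-Hochberg adjustment over 12039 genes, which leaves out the regulator and a gene without spread. Order and pairs used 100000 permutations in Python 3.11.15. Every step across genes was tested on simulated data. Alternatives were a pseudocount of 0.1, upper-quartile rescaling, 1 tumor per title number, the immediate-early score as covariate, no filter on low values and each tumor left out, the last added for regressions after seeing the data.

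Named genes were the 5 of highest and 3 of lowest r among tested protein-coding genes, up to 4 called genes per list, Zeb1, Zeb2, Snai1, Snai2, Twist1, Cdh1, Epcam, Fgfr2, Grhl1, Grhl3, Ovol2, Spdef and neighbors within 500 kb; other names were chosen after their values were seen. Symbols were matched to GENCODE release 21 on GRCm38 (13982 directly, 442 through an older symbol, 111 unmatched). Some genes that the rule names are not reported here.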

Additional observations from a re-analysis of the deposited data

How the results depend on the processing

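No paired analysis was possible because all tumors carry 1 label, which leaves no groups to pair across. The 4 pairs of tumors that share a title number lie within that group and were handled by keeping 1 tumor per number. Of the 6 steps in the order of levels, 4 passed; 1 did with a pseudocount of 0.1 and 2 with 1 tumor per title number, where Ehf minus Esrp1 turned from -0.10 to 0.0497. Of the 21 pairs, 2 passed; 4 did with 1 tumor per title number, 0 when the 2 tumors most distant from the first gene's median were dropped, and 0 (without X1310T2 or X1418T) to 6 (without X149T2) on leaving out each tumor.

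The genes called with Elf5 were 444, against 293 with a pseudocount of 0.1, 284 after upper-quartile rescaling, 235 with 1 tumor per title number and 78 with the immediate-early score as covariate. For Ehf the same settings gave 140, 41, 29 and 32 in place of 67. For Grhl2, 2888 became 743 after rescaling, 468 with 1 tumor per title number and 0 with the covariate. For Ovol1, 88 became 39 with the smaller pseudocount, 209 after rescaling, 28 with the covariate and 228 without a filter. For Esrp2, 8 became 0 after rescaling, 0 with 1 tumor per title number and 0 with the covariate. On leaving out each tumor the counts ran from 209 to 484 for Elf5, 0 to 1.5e+02 (84 rising and 65 falling, without X1515T) for Ehf, 1523 to 3109 for Grhl2, 0 to 138 for Ovol1, 0 to 1 for Esrp1 and 0 to 568 for Esrp2, and stayed at 0 for Elf3. The cause was not tested.

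Of 89 slopes of named genes, none changed sign under these settings. The covariate ended 59 of their calls, 1 tumor per title number 32, rescaling 23, the smaller pseudocount 20, no filter 8, and leaving out a tumor 5 (X149T2) to 38 (X154T). The number of tumors, the unknown depth and values listed at 0 limit what low genes can show.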
